A study of Vernicia fordii with 6 samples.

Results

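Sugars and sugar alcohols cross plant membranes through a few families of carriers, and the unigenes of the tung tree (*Vernicia fordii*) that match them are described here in male and female flower buds. Unigenes, the transcripts assembled from the reads, were taken as members where the name of their best SwissProt match contained sugar transporter or sugar transport protein, sugar carrier, sucrose transport, inositol transporter, polyol transporter or hexose carrier, without the 2 matches to UDP-sugar transporters. This gave 78 of the 56065 unigenes, with 40 different SwissProt names. Of these best matches, 63 were Arabidopsis proteins, and the names used here are therefore those of homologs in other species. The 78 comprised 24 monosaccharide carriers of the STP, sugar carrier and hexose carrier type, 19 SWEET unigenes, 19 ERD6-like unigenes, 7 polyol (PLT), 5 inositol (INT) and 4 sucrose (SUC) transporters. Expression levels of single unigenes ran from 0.210 to 138 normalised RPKM as the mean of all libraries. Several unigenes can be pieces of 1 gene: 9 of them had ERD6-like 5 as best match, and lengths ran from 341 to 5149 bp.

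The tung tree is monoecious, with both kinds of flower on the same inflorescence, and the series compared male with female flowers at stage 7, when the floral dome stays flat in male flowers and bulges into a gynoecium in female flowers. There were 3 samples of male flowers and 3 of female flowers from untreated 4-year old trees of the cultivar Duisuitong, each sample a pool of flower buds, with both sexes collected from the same plant. Pools of whole buds mix all organs of a flower, and according to the paper male flowers never form carpels. A smaller number of cells of a type and less RNA in each cell therefore cannot be told apart. All levels are given as normalised RPKM, which are reads divided by the length of the unigene and by the library total after scaling with the TMM method of edgeR. Differences are log2, male minus female, with the standard error (SE), from the quasi-likelihood test of edgeR with the 3 samples of each sex as replicates. DEGs, the unigenes said to be called, had an adjusted p below 0.05 together with a 2-fold or larger difference. These p values measure the spread between pools of buds.

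Sucrose made in leaves reaches flowers in the phloem. It is loaded by SUC proteins, which carry sucrose together with protons, and it is released by SWEET proteins, which let sugars pass down their gradient. Outside the phloem it can be split by cell wall invertase, and STP proteins then take up glucose and other monosaccharides with protons. Developing pollen has no cytoplasmic connection to the surrounding anther tissue and depends on such uptake. INT and PLT proteins carry myo-inositol and sugar alcohols with protons, while many ERD6-like proteins and INT1 sit in the vacuolar membrane.

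Reads counted on unigenes numbered between 14099287 and 16849489 in male libraries and between 11467832 and 40385019 in female libraries. After TMM scaling, the effective totals were 11467858 to 22906003 reads in male libraries and 3648171 to 73636463 in female libraries, with the lowest in female replicate 3, where 5 unigenes took 54.9% of the reads. Female replicate 3 had 8168 reads on the 78 transporters and female replicate 2 had 136115, so that a single read weighed most in female replicate 3. The petal and stamen identity unigenes, both matching DEFICIENS, summed to 207 to 489 in male and 130 to 173 in female flowers, with 0 of 2 called by edgeR. The search words for the carpel, which did not include AGAMOUS, matched SPATULA and SHORT INTERNODES homologs, with sums of 7.66 to 18.5 in male and 10.1 to 17.5 in female flowers and 0 of 3 called. The 32 unigenes of the pollen list summed to 2149 to 2865 in male and 423 to 1493 in female flowers. Of the 26 tested, 8 were called, all higher in male flowers, where 1.56% of all unigenes tested were called in that direction. The search word SF21 also took in unigenes named probable transcription factor PosF21 (contig_13170, contig_21250 and First_Contig11), which were tested and not called. DESeq2 called 11 of the pollen list higher in male and 1 higher in female flowers, against 2.57% and 1.56% of all unigenes it tested. At the labelled stage stamens are still primordia, and yet an exopolygalacturonase of the pollen list (contig_31994) had 509.8, 635 and 509 normalised RPKM in male flowers, against 0.398, 0.604 and 0.508 in female flowers. The list also holds 2 homologs of the olive pollen allergen Ole e 6 without any read in female flowers. Another Ole e 6 homolog (contig_53712) had 0, 0.298 and 1.29 normalised RPKM in male flowers, against 0.0816, 0.402 and 0 in female flowers. A homolog of the pollen allergen Bet v 1 (contig_22080) had 0 in each male library, against 3.07, 5.09 and 0.940 in female flowers. Neither of these was among the 26 tested. The tapetum list summed to 18.5 to 28.1 in male and 9.49 to 23.4 in female flowers (0 of 3 called), and the leaf list to 1471 to 3183 in male and 688 to 7902 in female flowers (0 of 21 called). In these lists without a DEG, unadjusted p values under 0.05 were found for both DEFICIENS unigenes, 1 of the tapetum list and 0 of the carpel and leaf lists, where all unigenes gave 13.2%. DESeq2 called 2 of the 38 leaf unigenes, higher in male flowers, where it called 2.57% of all unigenes in that direction. It called 0 of the petal and stamen, carpel and tapetum lists, which are too short to show a lack of calls. The 8 called unigenes of the pollen list shared the direction of the male transporters described next, as did 457 of all 499 unigenes called, so that the shared direction is not particular to either. The median log2 difference of the 26 tested was 0.47, and the part of this list in the transporter levels was not tested.

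In male flowers, 9 transporters were called DEGs with higher expression: 4 STP, 3 SWEET, 1 INT and 1 PLT unigene. These were 9 of the 63 transporters that passed the expression filter (14.3%), where 1.7% of all 29327 unigenes tested were called (1.56% in the male direction). The fit of edgeR called 0 transporters higher in female flowers, against 0.143% of all unigenes, and DESeq2 called 2. With the replicate block the count was again 9 (1.78% of all unigenes called), and without female replicate 3 it was 9 (2.62%). Of the 71 transporters that DESeq2 tested, 14 were called (19.7%, against 4.13% of all unigenes), 12 of them higher in male flowers, where all unigenes gave 2.57%. At an unadjusted p under 0.05 there were 19 transporters (30.2%, against 13.2% of all unigenes), 15 higher in male (23.8%) and 4 higher in female flowers (6.35%), where all unigenes gave 5.75% and 7.42%. The filter keeps a unigene that is expressed in 1 sex alone, and most of the 9 entered the test through their male reads. The median log2 difference of the 63 was -0.05, close to the -0.09 of all unigenes tested, and 33 of the 54 transporters not called had a negative difference.

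**Figure D1:**
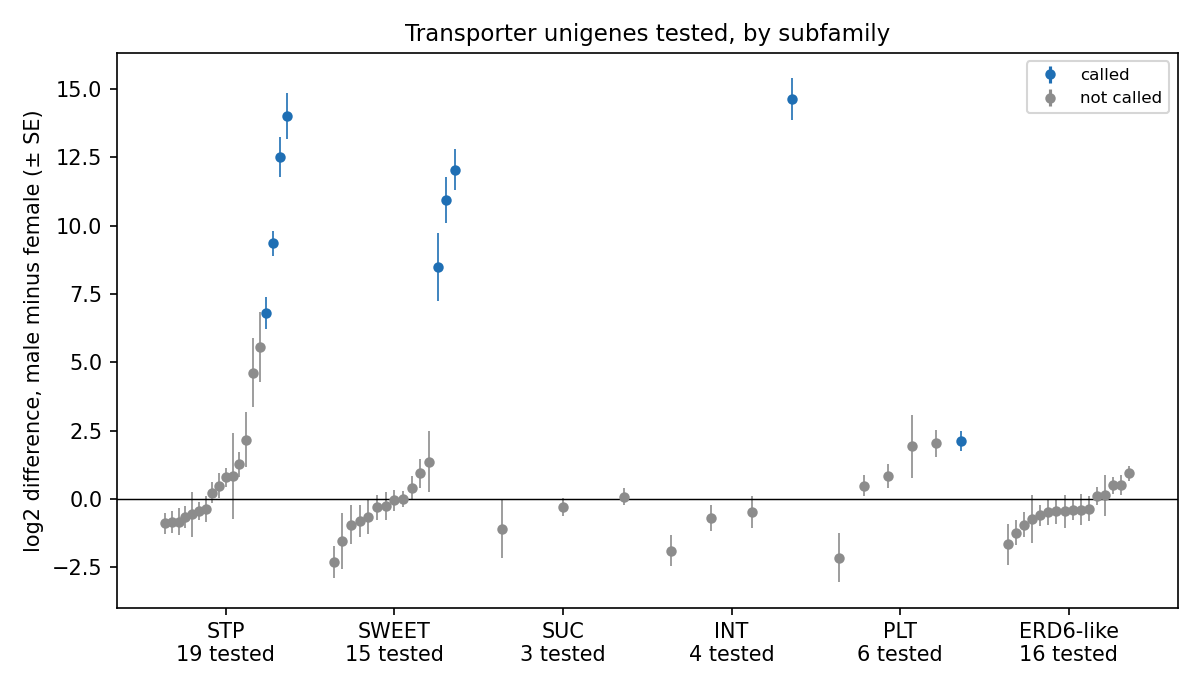
Log2 difference (male minus female, with SE) from edgeR on the y axis for the 63 transporter unigenes tested, grouped by subfamily on the x axis, with called unigenes in blue and the others in grey. The 9 called unigenes lie between 2.12 and 14.63 in the STP, SWEET, INT and PLT groups, while the ERD6-like group runs from -1.67 to 0.93. Values for unigenes without a female read depend on the prior count of the fit.

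The STP group held the highest male levels. Sugar transport protein 8 (STP8, contig_34503, 2268 bp) had 144, 151 and 108 normalised RPKM in male replicates 1, 2 and 3, against 0, 0.0120 and 0 in female replicates 1, 2 and 3. Those female values rest on 2 reads in female replicate 2, while the male libraries held 14602 reads. The ratio over pooled reads was 20808 with a 95% counting interval from 5759 to 171830.0, which covers counting error only (adjusted p = 3.11e-04).

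Next in order was a pair of unigenes matching STP10, a glucose carrier of pollen tubes in Arabidopsis. The unigene contig_36597 had 79.0, 153 and 143 normalised RPKM in male flowers, against 0.00955, 0.0290 and 0 in female flowers (log2 difference 12.51, SE 0.74, adjusted p = 3.11e-04). Only 5 reads of it were counted in female flowers. The unigene contig_36562 had 107, 99.997 and 88.5 normalised RPKM in male flowers, against 0.119, 0.181 and 0.140 in female flowers. All 3 female libraries held reads of contig_36562 (40 in all), and its log2 difference of 9.34 (SE 0.47, adjusted p = 3.11e-04) had the smallest SE among the STP unigenes called. Its level in male replicate 1 was above that of contig_36597 there, while it was below that of contig_36597 in male replicates 2 and 3. How reads shared by similar unigenes were assigned is not stated, so the split between these paralogs is uncertain. A further STP10 unigene was not called.

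The fourth STP unigene was expressed at a lower level. STP14 (contig_37365), whose Arabidopsis homolog carries galactose, had 12.7, 20.1 and 20.4 normalised RPKM in male flowers, against 0.213, 0.137 and 0 in female flowers. Its log2 difference was 6.80 (SE 0.57, adjusted p = 8.80e-04), with 37 female reads behind the lower values. In all 4 STP unigenes every male library lay above every female library, and all 4 were called with any 1 library left out.

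**Figure D2:**
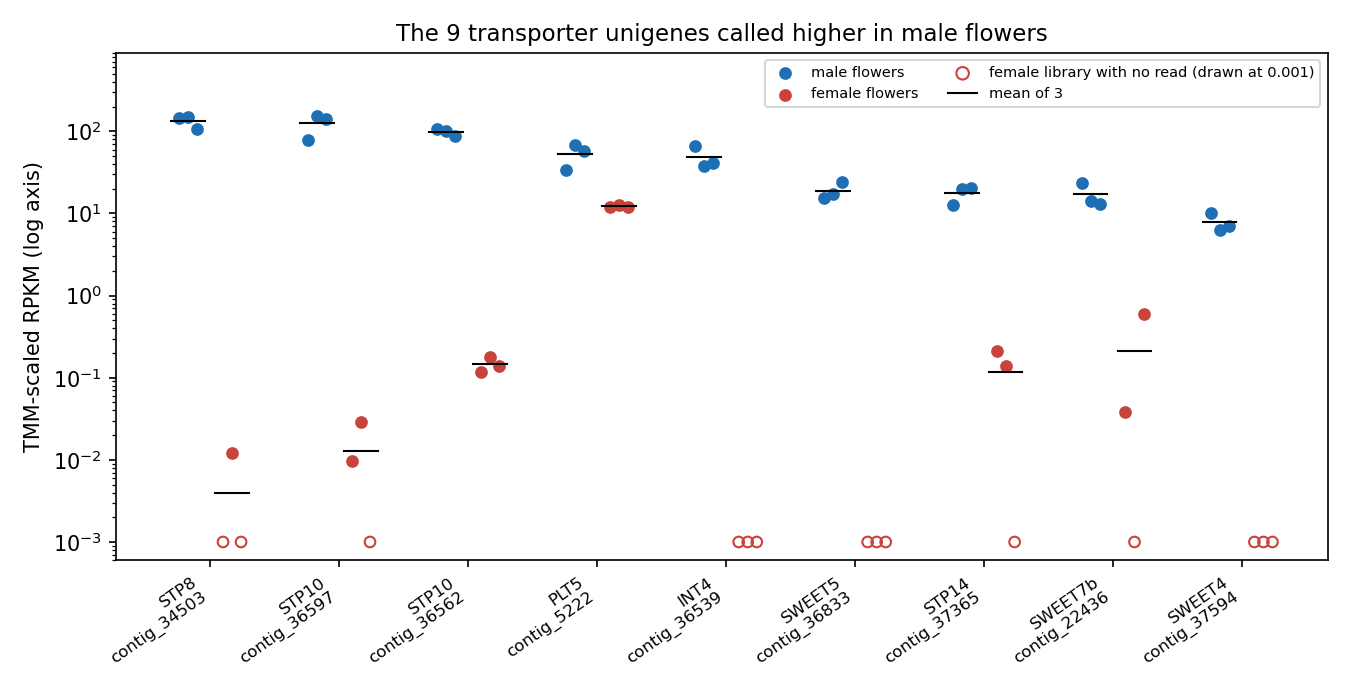
Normalised (TMM-scaled) RPKM on a log axis for the 9 transporter unigenes called, with the 3 male libraries (blue) left of the 3 female libraries (red) and black bars for the means of 3. Open circles at 0.001 mark libraries without a read. The male libraries sit between 6.37 and 153 in these unigenes, and female libraries exceed 1 only in PLT5 (contig_5222), at 12 to 12.7.

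The called SWEET unigenes were low in comparison, and female reads were nearly absent. SWEET5 (contig_36833), which in Arabidopsis is known from the vegetative cell of pollen, had 15.3, 17.3 and 23.9 normalised RPKM in male flowers and no read in any female library. Set against a floor of 3 reads over the female group, its male level was at least 772-fold higher (adjusted p = 0.00119). SWEET4 (contig_37594), a carrier of glucose and fructose in Arabidopsis, had 10.1, 6.37 and 7.00 normalised RPKM in male flowers and no female read, which gives an at least 345-fold higher level (adjusted p = 0.00273). The third, contig_22436, matched SWEET7b of rice and had 23.8, 14.3 and 13.0 normalised RPKM in male flowers, against 0.0387, 0 and 0.592 in female flowers. Its 4 female reads were split between female replicates 1 and 3, and its log2 difference of 8.49 (SE 1.24) had an adjusted p of 0.0135. It was not called without female replicate 1 (adjusted p = 0.0871).

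Inositol transporter 4 (INT4, contig_36539), a plasma membrane carrier of myo-inositol that in Arabidopsis is strong in pollen, had 65.8, 38.3 and 41.2 normalised RPKM in male flowers. No read of it was counted in female flowers, where 4684 reads were counted in the male libraries. All other INT unigenes had reads in female flowers, so that INT4 was the single member of its group that was limited to male flowers at this depth.

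Polyol transporter 5 (PLT5, contig_5222), a carrier of sugar alcohols and monosaccharides in sink tissues of Arabidopsis, was the one called unigene with more than 1 normalised RPKM in the female libraries. It had 34.0, 67.6 and 58.3 normalised RPKM in male flowers, against 12, 12.7 and 12 in female flowers. The female libraries were nearly equal, and the lowest male library lay above them all. Its log2 difference was 2.12 (SE 0.36, adjusted p = 0.0264), a 4.35-fold higher level in male flowers. This call was the least stable of the 9: when 1 of male replicates 2 and 3 or female replicates 1 and 2 was left out the adjusted p lay between 0.119 and 0.154, it was 0.649 with library totals without TMM, and limma on RPKM gave 0.810 and 0.908. The male libraries stayed above the female ones in the deposited RPKM of all 9.

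In sum over the 78 transporters, normalised RPKM reached 1170, 1433 and 1411 in male replicates 1, 2 and 3, against 871, 1079 and 1318 in female replicates 1, 2 and 3, and the sexes overlapped. The 9 called unigenes made up 35.6% to 42.1% of this sum in male and 0.964% to 1.42% in female libraries, shares that describe unigenes chosen by that difference. The STP sum was 555, 560 and 510 in male flowers, against 86.5, 86.1 and 192 in female flowers, and the sexes did not overlap. This separation rests on the called STP unigenes, chosen by that difference. Without them the sum was 212, 136 and 151 in male and 86.1, 85.8 and 192 in female flowers, and the sexes overlapped. The ERD6-like sum was 238 to 335 in male and 357 to 440 in female flowers, without overlap in the other direction. The INT sum of 153 to 225 in male and 236 to 381 in female flowers also did not overlap, although INT4 was high in male flowers. The PLT sum of 64.7 to 105 in male and 29.0 to 38.3 in female flowers was higher in each male library. In the SWEET sums, 112 to 188 in male and 104 to 152 in female flowers, the sexes overlapped. On the RPKM as deposited, a comparison added after the data were seen, the STP sum alone had no overlap, with 446 to 761 in male and 61.1 to 157 in female flowers. The ERD6-like sum was then 192 to 456 in male and 128 to 802 in female flowers, the INT sum 123 to 305 in male and 75.2 to 695 in female flowers and the PLT sum 52 to 143 in male and 12.2 to 58.2 in female flowers, so that the separation of these 3 depended on the scaling, with female replicate 3 lowest in each.

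**Figure D3:**
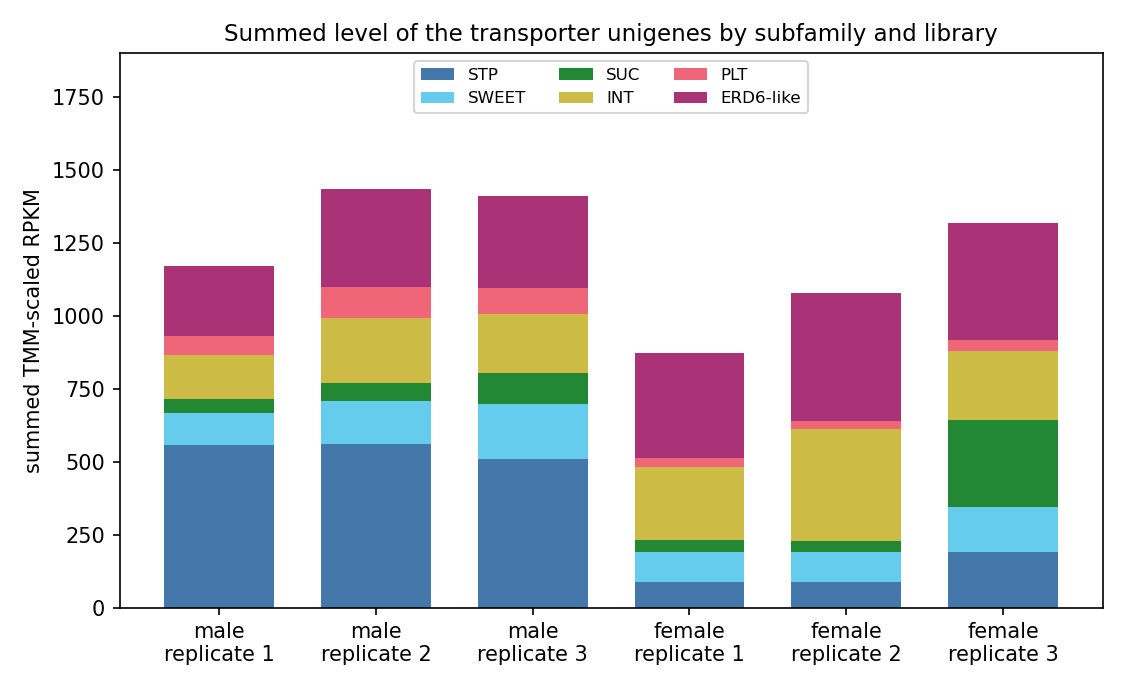
Summed normalised (TMM-scaled) RPKM of the 78 transporter unigenes on the y axis, stacked by subfamily, for each of the 3 male and 3 female libraries. The STP part is 510 to 560 in male and 86.1 to 192 in female libraries, and the SUC part of female replicate 3 is 299, against 37.8 and 41.6 in the other female libraries.

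The order of levels differed between the sexes. By mean level, STP8, STP10 (contig_36597), the INT1 unigene contig_1099, STP10 (contig_36562) and the ERD6-like 6 unigene contig_876 were highest in male flowers. In female flowers contig_1099 was first, followed by the other INT1 unigene contig_34, SUC2 (contig_2818), ERD6-like 5 (contig_8937) and contig_876. Neighbours in the male order did not differ beyond their spread among the first 4, with 134 ± 23.3, 125 ± 40.2, 106 ± 48.8 and 98.6 ± 9.38 normalised RPKM (SD, n = 3). In female flowers the first 3 had 171 ± 39.6, 101 ± 49.5 and 101 ± 145 normalised RPKM (SD, n = 3), and the place of SUC2 rests on female replicate 3.

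Of the 3 unigenes matching INT1, both that passed the filter had their highest levels in female flowers. INT1 exports myo-inositol from the vacuole in Arabidopsis. The longer one, contig_34, had 16.7, 41.1 and 23.6 normalised RPKM in male flowers, against 96.0, 152 and 53.7 in female flowers. Its log2 difference of -1.89 (SE 0.55) did not pass the test of edgeR (unadjusted p = 0.00922, adjusted p = 0.211), while DESeq2 gave an adjusted p of 0.0360. The other, contig_1099, had 49.4, 138 and 129 normalised RPKM in male flowers, against 143, 216 and 153 in female flowers. Male replicate 2 came close to female replicate 1 there without overlap, and the log2 difference of -0.70 (SE 0.49, adjusted p = 0.580) did not pass the test. The probable inositol transporter 2 (contig_5666), known in Arabidopsis from the anther tapetum, had 20.7, 6.58 and 8.20 normalised RPKM in male flowers, against 8.78, 12.1 and 29.2 in female flowers, and the sexes overlapped.

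Among the SWEET unigenes that passed the expression filter, SWEET7 (contig_9911) had the largest difference in the female direction. It had 5.51, 1.17 and 1.86 normalised RPKM in male flowers, against 10.3, 17.3 and 14.2 in female flowers, without overlap. The log2 difference of -2.30 (SE 0.59, unadjusted p = 0.00480) had an adjusted p of 0.153, and it was called without male replicate 1 (log2 difference -3.08, adjusted p = 0.0184). DESeq2 called it too (adjusted p = 0.0186), and these 2 unigenes, contig_34 and contig_9911, were the transporters that DESeq2 called higher in female flowers (2.82%, against 1.56% of all unigenes it tested). SWEET2 (contig_100), a glucose carrier of the vacuolar membrane in Arabidopsis, had 3.89, 20.4 and 22.4 normalised RPKM in male flowers, against 25.3, 28.5 and 28.2 in female flowers. Male replicate 1 alone was far below the rest, and the log2 difference of -0.81 (SE 0.60, adjusted p = 0.597) was -0.23 without it.

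Among the polyol transporters, PLT6 (contig_25736) had 6.36, 5.12 and 2.89 normalised RPKM in male flowers, against 1.72, 0.790 and 0.952 in female flowers. The sexes did not overlap, although they did on the RPKM as deposited. The log2 difference of 2.03 (SE 0.48, unadjusted p = 0.00298) was close in size to that of PLT5 but had an adjusted p of 0.116. DESeq2 gave an adjusted p of 0.00753. PLT4 (contig_7074) had 14.4, 23.8 and 24.5 normalised RPKM in male flowers, against 12.8, 10.4 and 21.8 in female flowers, and the sexes overlapped (log2 difference 0.49, SE 0.38, adjusted p = 0.623).

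Of the other STP unigenes, the more highly expressed were present in both sexes. Another STP8 unigene, contig_2018, had 41.6, 32.2 and 35.3 normalised RPKM in male flowers, against 15.8, 18.2 and 29.7 in female flowers. Here the same SwissProt name as contig_34503 went with a log2 difference of 0.78 (SE 0.33, unadjusted p = 0.0463, adjusted p = 0.368). Sugar carrier protein A (contig_14136), named after a protein of castor bean, had 9.92, 28.6 and 29.5 normalised RPKM in male flowers, against 7.42, 10.4 and 10.7 in female flowers. Male replicate 1 lay within the female range, and the log2 difference was 1.26 (SE 0.45, unadjusted p = 0.0235, adjusted p = 0.299). The 15 STP unigenes not called had a median log2 difference of 0.23, against -0.37 for all 54 transporters not called.

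The ERD6-like unigenes held none of the DEGs among their 16 tested. With 1.7% of all unigenes called, 16 are too few to show a lack of DEGs. Of the 16, 11 had a negative log2 difference, with a median of -0.43. Among them 2 had an unadjusted p under 0.05, where all unigenes gave 13.2%, and DESeq2 called 0, where it called 4.13% of all unigenes. These proteins are sugar exporters of the vacuole where they have been studied in Arabidopsis. The ERD6-like 6 unigene contig_13661 had 14.3, 17.3 and 16.1 normalised RPKM in male flowers, against 8.94, 8.32 and 7.70 in female flowers. Replicates were close to each other and the sexes did not overlap, although they did on the RPKM as deposited. The log2 difference was 0.93 (SE 0.26, unadjusted p = 0.00788, adjusted p = 0.194). ERD6-like 7 (contig_3470) had 13.5, 30.7 and 16.5 normalised RPKM in male flowers, against 46.5, 67.9 and 28.1 in female flowers. Female replicate 3 lay below male replicate 2, and the log2 difference of -1.23 (SE 0.45, unadjusted p = 0.0260) had an adjusted p of 0.308. Another unigene matching ERD6-like 7, First_Contig322 (5138 bp), had 31.1, 31.7 and 29.5 normalised RPKM in male flowers, against 25.8, 19.8 and 20.2 in female flowers. It went the other way (log2 difference 0.49, SE 0.32, adjusted p = 0.559) and is named here after its values were seen. Its sexes did not overlap in normalised RPKM, but they did on the RPKM as deposited. The most abundant of the group, contig_876, had 48.6, 59.9 and 66.4 normalised RPKM in male flowers, against 72.0, 65.9 and 127 in female flowers, and ERD6-like 5 (contig_8937) had 23.8, 69.6 and 51.7 in male flowers, against 83.9, 129 and 65.7 in female flowers. In both the sexes overlapped and the adjusted p values were 0.540 and 0.425.

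Of the 3 sucrose transporters tested, 0 were called by edgeR or DESeq2 and 0 had an unadjusted p under 0.05. Among all unigenes these shares were 1.7%, 4.13% and 13.2%, so 3 are too few to show a lack of differences. SUC2 (contig_2818), which loads sucrose into the phloem in Arabidopsis, had 27.9, 33.9 and 79.2 normalised RPKM in male flowers, against 18.0, 16.5 and 268 in female flowers. Female replicate 3 held the highest value and the other female libraries the lowest, and the log2 difference of -1.10 (SE 1.07, adjusted p = 0.693) was 1.59 without female replicate 3 (adjusted p = 0.103). SUC4 (contig_9642), a carrier of the vacuolar membrane, had 10.4, 14.4 and 11 normalised RPKM in male flowers, against 12.4, 12.3 and 19.4 in female flowers (log2 difference -0.30, SE 0.32, adjusted p = 0.721). SUC3 (contig_6989) had 7.89, 11.4 and 13.4 normalised RPKM in male flowers, against 11.1, 8.88 and 10.9 in female flowers. Its difference was 0.08 on the log2 scale (SE 0.31), and it is named here after its values were seen.

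In a further group of transporters a single library was set apart. Of the 62 with a mean of at least 1 normalised RPKM, 8 had 1 library at least 3 times above the next, and these were male replicate 1 in 3 unigenes, female replicate 1 in 1 and female replicate 3 in 4. This rule and the unigenes described under it that were neither called nor among the smallest p values were chosen after the values were seen. The share of all unigenes that meet the rule was not computed, so the count cannot be read as a trait of transporters. STP6 (contig_36745), a monosaccharide carrier of pollen in Arabidopsis, had 31.1, 1.31 and 3.03 normalised RPKM in male flowers, against 0.213, 0.262 and 0.311 in female flowers. A second STP14 unigene, contig_21363, had 35.7, 1.40 and 3.27 normalised RPKM in male flowers, against 0.278, 0.802 and 0.568 in female flowers. In both, male replicate 1 was over 10 times the next library, while all male libraries still lay above the female ones. Their log2 differences were 5.56 (SE 1.28, adjusted p = 0.107) and 4.61 (SE 1.26, adjusted p = 0.178), and DESeq2 called both. Without male replicate 1 the log2 difference of contig_21363 was 2.22. The third, a PLT5 unigene (contig_6323), had 6.79, 0.585 and 0.362 normalised RPKM in male flowers, against 0.423, 0.511 and 1.40 in female flowers. In SWEET15 (contig_10560), the SWEET unigene with the highest mean, male replicate 1 was the lowest library instead, with 0.692, 43.3 and 64.8 normalised RPKM in male flowers, against 22.6, 9.93 and 9.57 in female flowers. Its log2 difference was 1.36 (SE 1.12, adjusted p = 0.641).

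Female replicate 3 stood apart in SUC2 and in 3 more transporters. Sugar carrier protein C (contig_4150) had 18.2, 18.3 and 21.6 normalised RPKM in male flowers, against 9.54, 6.67 and 71.0 in female flowers. SWEET1 (contig_7787) had 11, 4.89 and 12.5 normalised RPKM in male flowers, against 7.90, 7.14 and 40.2 in female flowers. A unigene matching NEC1, a SWEET protein of petunia nectaries (contig_14301), had 0, 0.0840 and 1.01 normalised RPKM in male flowers, against 0, 0.0131 and 24.8 in female flowers, with 94 reads in female replicate 3 and 1 read in the other female libraries. It did not pass the expression filter. In each of these the other female libraries lay within or below the male range. Female replicate 1 alone was high in a further PLT5 unigene (contig_34913), which had 0.321, 0.579 and 0.358 normalised RPKM in male flowers, against 4.26, 0.986 and 0.202 in female flowers (log2 difference -2.15, SE 0.90, unadjusted p = 0.0449, adjusted p = 0.366).

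**Figure D4:**
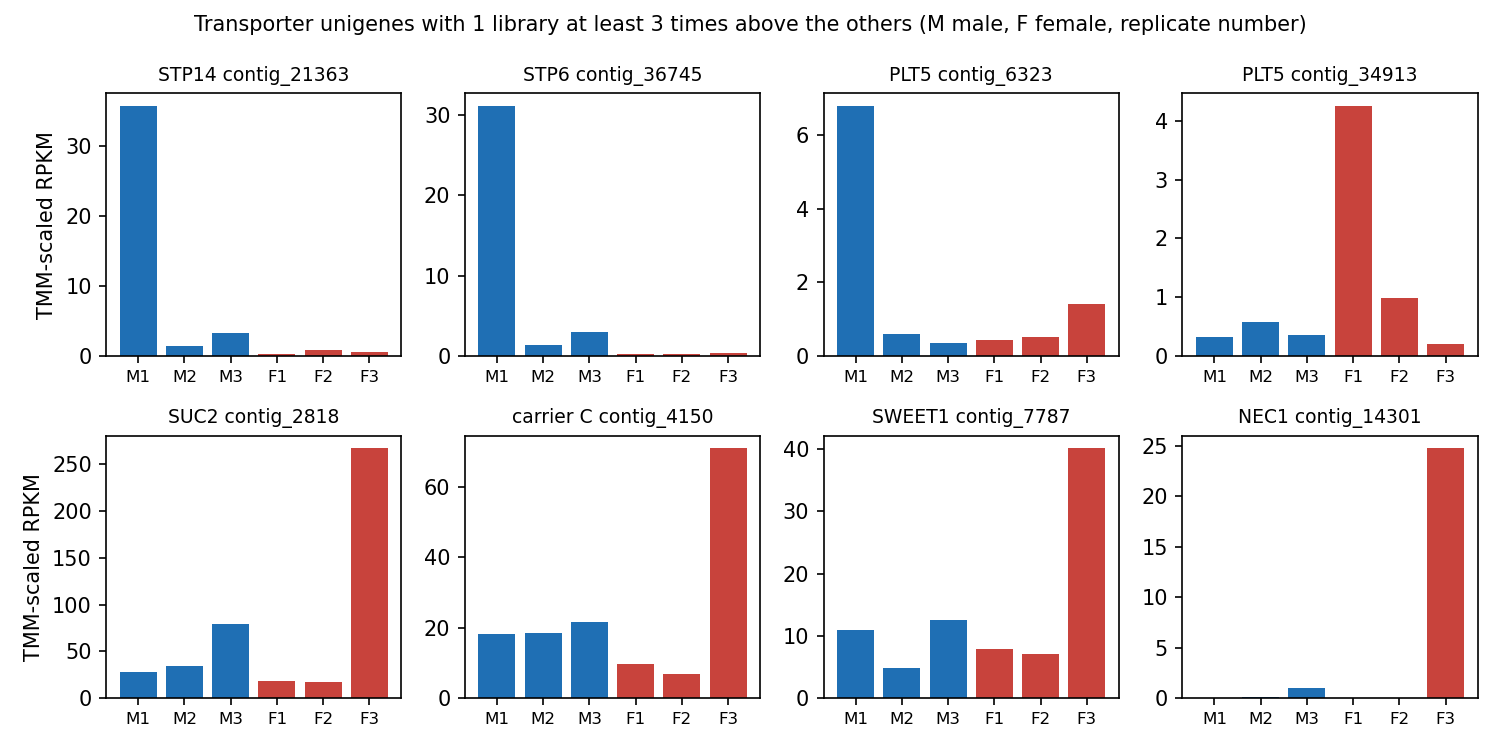
Normalised (TMM-scaled) RPKM on linear y axes from 0 for the 8 transporter unigenes in which 1 library was at least 3 times above every other, with the male libraries (blue, M) left of the female libraries (red, F). Male replicate 1 stands out in 3 panels, female replicate 1 in 1 and female replicate 3 in 4, where SUC2 reaches 268.

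Of the 63 transporters tested, 24 (38.1%) had no overlap between the sexes, against 19.4% of all unigenes tested. In 15 of them (23.8%) the male libraries were above, against 10.4% of all unigenes, and in 9 (14.3%) the female libraries, against 9.06%. Without the called unigenes, the male libraries were above in 6 of 54 (11.1%). On the RPKM as deposited, 14 transporters had no overlap (4.74% of all unigenes). In 12 the male and in 2 the female libraries were above (19% and 3.17%, against 3.46% and 1.28% of all unigenes). The count in the female direction thus depended on the scaling, and contig_34 and contig_1099 overlapped on the deposited RPKM. Among the male ones not called, contig_13661, First_Contig322, contig_2018 and PLT6 (contig_25736) overlapped there too. The called unigenes stayed separate on both scales. The 15 transporters that failed the filter included 14 below 1 normalised RPKM on average, and NEC1 (contig_14301) was the exception.

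Lists of genes that work beside these carriers held 1 or 2 called members each, where 1.7% of all unigenes tested were called (1.56% higher in male flowers). Plasma membrane proton pumps build the gradient used by those STP, SUC, INT and PLT proteins that sit in the same membrane, and 1 of 8 tested was called. It was ATPase 9 (contig_845), known from anthers in Arabidopsis, with 123, 96.9 and 96.9 normalised RPKM in male flowers, against 0.152, 0.127 and 0.241 in female flowers. Among invertases and sucrose synthases, 2 of 23 tested were called. The cell wall invertase contig_32113 had 6.25, 72.2 and 55.8 normalised RPKM in male flowers, against 0.458, 0.334 and 0.412 in female flowers, and like SWEET15 it was lowest among the male libraries in male replicate 1. The neutral invertase CINV2 (contig_36841) had 10.9, 1.03 and 1.28 normalised RPKM in male flowers, against 0, 0.0110 and 0 in female flowers, and like STP6 it was highest in male replicate 1. At an unadjusted p under 0.05 the same 23 held 3 unigenes higher in male and 2 higher in female flowers. All unigenes tested gave 5.75% and 7.42%, and the 2 in the female direction are near that share. Those 2 were sucrose synthases, contig_25390 (log2 difference -1.78) and contig_3399 (-0.91), and neither was called.

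Of 15 hexokinase and fructokinase unigenes tested, which phosphorylate imported hexoses, 2 were called, both matching fructokinase-5. The search words also took in 8 tested unigenes of 6-phosphofructokinase, a later step of glycolysis, of which 0 were called. The unigene contig_19275 had 26.9, 43.3 and 49.6 normalised RPKM in male flowers, against 2.22, 1.79 and 1.53 in female flowers. The unigene contig_36603 had 102, 5.81 and 14.4 normalised RPKM in male flowers, against 0, 0.0229 and 0.231 in female flowers, with male replicate 1 highest again. Of 5 unigenes for inositol synthesis and breakdown, inositol oxygenase 4 (contig_9653) was called, with 68.3, 52.1 and 60.3 normalised RPKM in male flowers, against 4.82, 2.58 and 12.4 in female flowers. Both inositol oxygenase 1 unigenes had negative log2 differences, -1.98 for contig_9905 and -1.45 for contig_18605 (edgeR, unadjusted p = 0.00758 and 0.0352), and neither was called. In this list of 5 tested, 2 unigenes in each direction had an unadjusted p under 0.05, where all unigenes gave 5.75% in the male and 7.42% in the female direction. Of 17 sugar carriers of plastids and vacuoles outside the families above, monosaccharide-sensing protein 3 (contig_36611) was called, with 16.5, 6.19 and 6.78 normalised RPKM in male flowers, against 0.00609, 0.0323 and 0 in female flowers. All 7 called unigenes of these 5 lists were higher in male flowers, as were 457 of all 499 unigenes called. DESeq2 called 1 unigene for inositol metabolism higher in female flowers, where it called 1.56% of all unigenes in that direction. The lists had median log2 differences between 0.10 and 0.58, against the median of -0.09 for all unigenes tested.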

How the data were processed

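Reads of 3 male and 3 female samples of stage 7 flower buds (Illumina, total RNA) were cleaned and assembled de novo by the authors with CLC Genomics Workbench and CAP3. The authors deposited the read count of each unigene in each library and RPKM values, with no counting program given in the sources used here. Column names give a number with "an" or "gy", read as male and female samples of that number. RPKM recomputed from the counts differed from the deposited RPKM by at most 4.73e-08 in relative terms. The last 7 lines of the table, which begin with one that names no unigene, were left out, and all 12 columns of samples were used.

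Counts were tested in R 4.3.3 with edgeR 4.0.16 (filterByExpr, TMM, quasi-likelihood F test, Benjamini-Hochberg adjustment over all 29327 unigenes, prior count 0.125), and the SE was derived as the size of the log2 difference over the root of F. Alternatives used DESeq2 1.42.0, limma 3.58.1 on log2(RPKM + 1) and log2(RPKM + 0.1), other scalings, no filter, a replicate block and each library left out. Tables were made in Python 3.11.15 with pandas 2.3.3. With 3 samples in each sex, the smallest p of an exact permutation test is 0.1. The tests were tried on simulated counts.

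Members, lists and tests were chosen with earlier results of these data known. Named were all transporters called, up to 8 others in each direction at an unadjusted p under 0.05, and the 2 with the highest mean in each subfamily. Male and female samples that share a number had correlated deviations from their sex means (0.18, 0.12 and 0.33, each over 0.1), although 1 pair of unlike numbers reached 0.15. The main test did not pair the samples, and only the alternative fit with a replicate block used the numbers. The methods state that both sexes came from the same plant.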

Additional observations from a re-analysis of the deposited data

How the results depend on the processing

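The 9 transporters called were also called by DESeq2 (14 in all, 2 of them higher in female flowers) and with the replicate block (9), which changed no call of a named transporter. The number called was 7 to 10 with each library left out, 8 with limma at either pseudocount, 10 without TMM and 11 with no filter, and 0 to 1 was called higher in female flowers, the 1 without male replicate 1. Of all unigenes, 499 were called, against 802 with no filter, 1766 with DESeq2 and 269 to 970 with a library left out. Transporters whose sexes did not overlap numbered 24, against 14 on deposited RPKM and 25 to 39 with a library left out, where fewer samples make overlap less likely. The direction of SUC2 (contig_2818) turned with the replicate block (0.0166) and without female replicate 3 (-1.64 to 1.59 over the libraries left out), that of SUC4 (contig_9642) without female replicate 3 (0.10) and that of SWEET15 (contig_10560) with limma on log2(RPKM + 0.1) (-0.0032). The cause was not tested. Without TMM the median of all log2 differences was -0.41, against -0.09 with it. STP14 (contig_21363) and STP6 (contig_36745) were called without TMM and with no filter, and STP6 also without male replicate 2. Of 351 refits of the 27 named transporters, 328 kept direction and side of the threshold, 8 lost and 11 gained a call and 4 turned. Female replicate 3, with the smallest effective total, limits the precision of low levels, and no read there does not show absence.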
